A study of Mus musculus with 16 samples.

Results

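The genes described are 45 mouse translation factors that act outside the eIF4F cap-binding complex. They were chosen by name as the initiation factors eIF1, eIF2, eIF2B, eIF3, eIF5 and eIF6 with their partners and regulators, the elongation factors and the release and recycling factors. All 45 were found among the 20622 genes of the tables. They were measured in KM cells, a line grown from the lung tumours of 1 male mouse carrying Rosa26LSL-MYC/LSL-MYC and a further Cre-dependent oncogenic allele, in which Cre recombinase was delivered to alveolar type II cells with Ad5-SPC-CRE. KM_4A2cr is a pool of 4 clones made with a lentiCRISPR guide that cuts within the Eif4a2 coding sequence, chosen for lack of eIF4A2 on a western blot, and KM_NTC received a non-targeting guide. Both lines therefore carry the oncogenic alleles, Cas9 and puromycin selection, neither was treated with a drug, and the comparison is of 1 pool with 1 control line. Each line has 4 replicates, described in the series as cells plated and harvested on different days, and each lysate gave 1 library of ribosome-protected fragments (RPFs), the stretches of mRNA shielded by 80S ribosomes from RNase I, and 1 library of total cytoplasmic RNA, so that the study holds 16 libraries.

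Translation begins when eIF2, loaded with GTP and the initiator methionine tRNA, joins the small ribosomal subunit together with eIF1, eIF1A, eIF3 and eIF5, and the complex scans the mRNA for a start codon. eIF5 then triggers GTP hydrolysis, eIF5B joins the large subunit, and eIF2B recharges eIF2 with GTP, the step that stress kinases block by phosphorylating eIF2. eEF1 brings aminoacyl-tRNA to the ribosome, eEF2 moves it along, eIF5A eases peptide bond formation, and eRF1 with eRF3 and ABCE1 releases the protein and splits the ribosome. Several of these genes, among them Eef1a1, Eef2 and Eif3f, have mRNAs known as TOP mRNAs, which start with a run of pyrimidines and whose translation follows mTORC1 activity.

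Stretches of 30 bases near the annotated transcription starts are shown for Eef1a1, Eef1b2 and Eif3f, whose mRNAs are known TOP mRNAs, because members of that kind moved together between replicates, and for Eif2b5 and Paip1, the members called in translational efficiency. The capitals mark the longest run of C and T beginning with C on the gene's strand, within 50 bases of the start on either side. All are from RefSeq, build GRCm38.p6, and read 5′ to 3′ on the gene's strand.
Eef1a1 (chr9:78481708-78481737, minus strand): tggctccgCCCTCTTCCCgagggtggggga
Eef1b2 (chr1:63176851-63176880, plus strand): tgcgtccgagcgCTTTCgttcaactccggc
Eif3f (chr7:108934403-108934432, plus strand): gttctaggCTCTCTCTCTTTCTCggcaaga
Eif2b5 (chr16:20498794-20498823, plus strand): tgcgcattCCTTCCTCTTTCTCTCCCTgca
Paip1 (chr13:119428545-119428574, plus strand): cgcccacgCCCCCTCCCCCCgggtgatttc
The run was 19 bases long in Eif2b5, 15 in Eif3f, 12 in Paip1, 10 in Eef1a1 and 5 in Eef1b2. It began before the annotated start, by 15 bases in Eif2b5, 4 in Eif3f, 47 in Paip1 and 5 in Eef1a1, and at base 33 after the start in Eef1b2, so that the run of Paip1 lay wholly upstream of its start. Paip1 has a second start in the table, where the longest run was 4 bases. A run of 9 or more bases lay in this window at 20.1% of all 32851 starts in the table and at 15 of the 46 starts of the 36 members it covers (32.6%). Of the 4 known TOP members covered, 2 had such a run. Of the 15 members with such a run, total RNA was higher in replicate 4 than the mean of replicates 1 to 3 for 6 in KM_NTC and 10 in KM_4A2cr. Of the 21 without one it was higher for 4 and 10. In RPFs this held for 7 and 8 of the 15, and for 4 and 8 of the 20 tested without one.

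The RPF libraries held 4512403 to 9621848 counts in coding regions and the total RNA libraries 5350919 to 9312622 counts. The 45 genes together took 1.31% to 2.09% of RPF counts and 1.61% to 3.60% of total RNA counts. Eif4a2, the targeted gene, was read in RPFs at 177 ± 142 counts per 1000000 (CPM) in KM_NTC and 140.0 ± 138 in KM_4A2cr (SD, n = 4 each), lower in KM_4A2cr in 4 of 4 pairs, with a log2 fold change of -0.49 (SE 0.149, adjusted p = 0.0941 from edgeR's quasi-likelihood F-test, adjusted by the Benjamini-Hochberg method). In total RNA its log2 fold change was -0.18 (adjusted p = 0.504 in the same test). Of the epithelial markers, all 5 were read in every library, with summed levels of 6814 to 9893 CPM in KM_NTC RPFs and 8189 to 11295 in KM_4A2cr RPFs. The alveolar type II surfactant genes Sftpc and Sftpb were at 0 in all total RNA libraries, as were the fibroblast genes Col3a1, Dcn and Lum and the leukocyte genes Lyz2 and Adgre1. Of the same lists, the leukocyte marker Cd68 was read at 19.4 to 162 CPM in total RNA and 74.0 to 777 in RPFs, and the fibroblast marker Pdgfra at 3.09 to 9.96 and 2.63 to 21.4. The endothelial marker Kdr was read at 0.379 to 4.41 CPM in total RNA and 1.27 to 16.8 in RPFs. The other fibroblast, leukocyte and endothelial markers stayed at or below 2.33 CPM. Of the other alveolar type II markers, Lamp3 was read at 1.08 to 2.95 CPM in total RNA and Napsa at 0.199 to 1.47 in RPFs. The authors assessed the identity of their KM lines by surfactant protein C, the product of Sftpc, among other features. Replicate 4 stood apart from the others in both lines, with a median distance from the mean of the other replicates of 0.43 to 0.58 on the log2 scale, against 0.22 to 0.42 for the libraries of replicates 1 to 3. Values without replicate 4 are therefore also given for the calls, counts and medians below. For Eif4a2 in RPFs the log2 fold change was then -0.60 (adjusted p = 0.00304).

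The mRNA levels of the members, which the deposited transcripts per 1000000 (TPM) correct for transcript length, spanned more than 3 orders of magnitude. Eef1a1, which carries aminoacyl-tRNA to the ribosome, was highest at 9936 ± 1431 TPM in KM_NTC (SD, n = 4), followed by its exchange factor subunit Eef1b2 at 2261 ± 217 and the translocase Eef2 at 1282 ± 237. At the other end were Eef2k, the kinase that inhibits eEF2, at 4.51 ± 1.43 TPM and Pdcd4, an inhibitor of eIF4A, at 5.05 ± 1.12. Subunits of one complex were not read at one level. The 13 eIF3 genes ran from 553 ± 62.9 TPM for Eif3e down to 41.6 ± 13.6 for Eif3f and 41.6 ± 11.5 for Eif3j1, a 13.3-fold range, and the KM_NTC values of Eif3f (27.9 to 59.6) overlapped those of Eif3b (38.3 to 113) but did not reach those of Eif3d (90.9 to 155), the next subunit up. Among the 3 eIF2 subunits, Eif2s2 at 367 ± 108 TPM lay above Eif2s3x at 148 ± 42.0 and Eif2s1 at 137 ± 42.1, and the latter pair differed by less than their spread. The 5 eIF2B subunits ranged from 50.9 ± 18.4 TPM for the catalytic subunit Eif2b5 to 10.4 ± 3.83 for Eif2b4. Of the 2 factors that act at the end of the coding region as a pair, Etf1 (eRF1) was read at 209 ± 60.5 TPM and Gspt1 (eRF3) at 71.2 ± 22.4. RPF levels are not compared between genes here, because the lengths of the counted coding stretches were not used here.

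**Figure D1:**
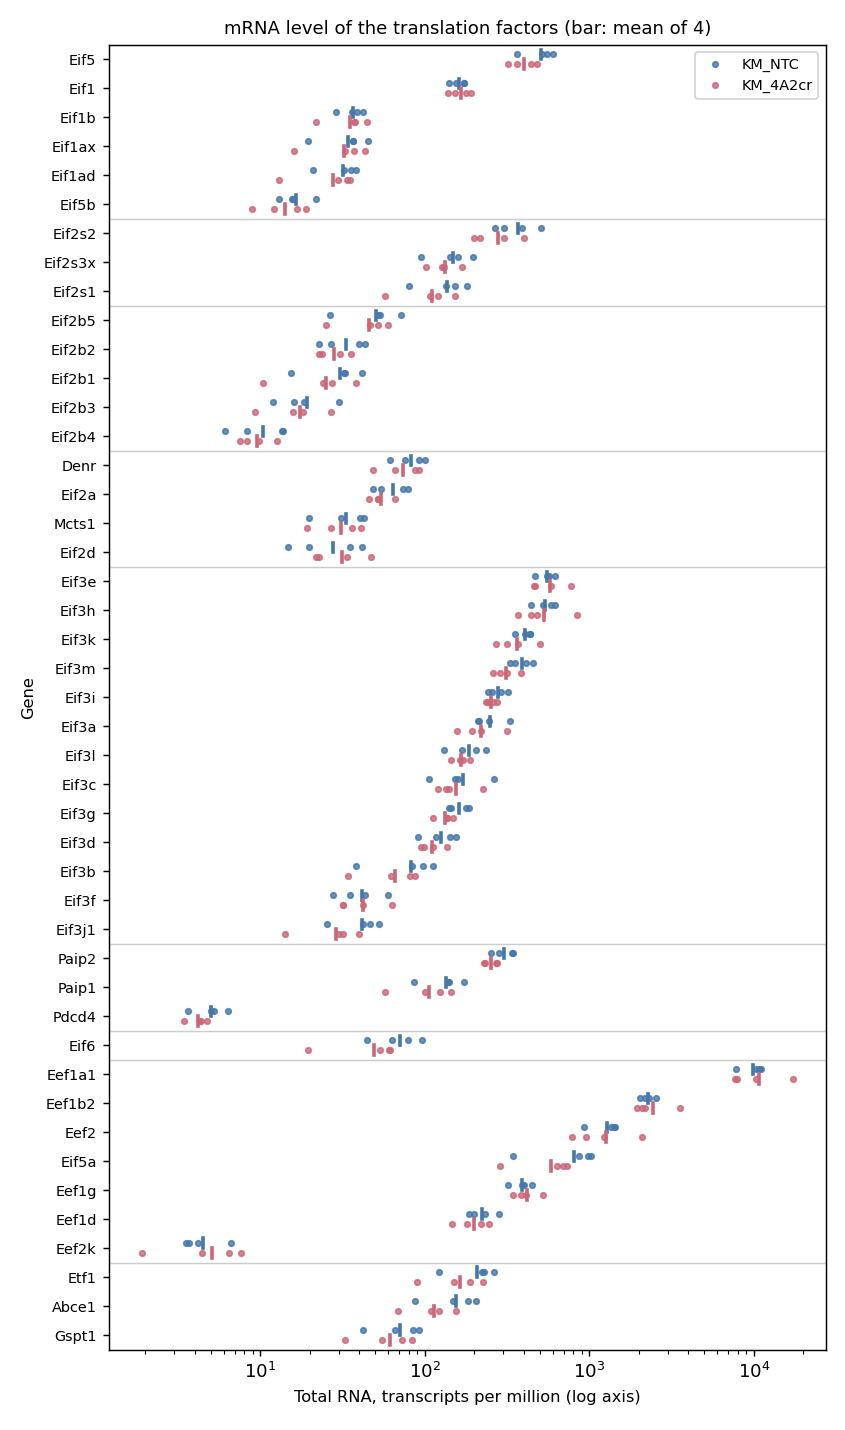
Total RNA level of each member in TPM on a log axis, with 1 point per library and a bar at the mean of 4 libraries of each line. Elongation factors hold the highest level (Eef1a1, 9936 TPM in KM_NTC) and the lowest (Eef2k, 4.51 TPM), and the 2 lines lie over each other for every member.

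The comparison of the lines asks whether loss of eIF4A2 altered the ribosome occupancy or the mRNA level of the rest of the initiation, elongation and termination machinery. Few members passed the test. Of the 44 members tested in RPFs, 1 passed an adjusted p of 0.1 in edgeR, fitted with the replicate as a block. This was Eif6, which was lower in KM_4A2cr. Over all genes the same threshold called 1062 of 10291, or 10.3%, with 3.72% lower and 6.6% higher. In total RNA none of the 45 members passed, where 667 of 10880 genes did (6.13%). An unadjusted p under 0.05 in edgeR was reached by 3 members (Eif2d, Eif3j1 and Eif6) and by 1995 of the 10880 genes. DESeq2 called no member and 589 genes (5.41%) in total RNA. In translational efficiency (TE), the change in RPFs relative to that in total RNA of the same lysates, 2 of 44 members passed, Eif2b5 lower and Paip1 higher, where 291 of 9989 genes did (2.91%, with 1.04% lower and 1.87% higher). Estimates above 0 were found for 19 of 44 members in RPFs, 20 of 45 in total RNA and 17 of 44 in TE. Over all genes tested these counts were 5029 of 10291, 5619 of 10880 and 4708 of 9989. The median log2 fold change of the members was -0.07 in RPFs, -0.01 in total RNA and -0.05 in TE, beside -0.01, 0.01 and -0.02 over all genes tested. The members' medians without replicate 4 were -0.15, -0.17 and 0.05, so that the median in TE turned its sign.

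The intervals were narrow enough to bound most members. The 95% confidence interval lay within a 1.5-fold change in either direction for 35 of 44 members in RPFs, 35 of 45 in total RNA and 38 of 44 in TE. Over all genes tested this held for 4550 of 10291 in RPFs, 5921 of 10880 in total RNA and 6788 of 9989 in TE. For every member the values of the lines overlapped, in RPFs and in total RNA, while 2.13% and 1.97% of all genes had values that did not. Without the replicate block no gene passed in any of the 3 comparisons, and with a threshold of 0.05 in place of 0.1 no member did.

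**Figure D2:**
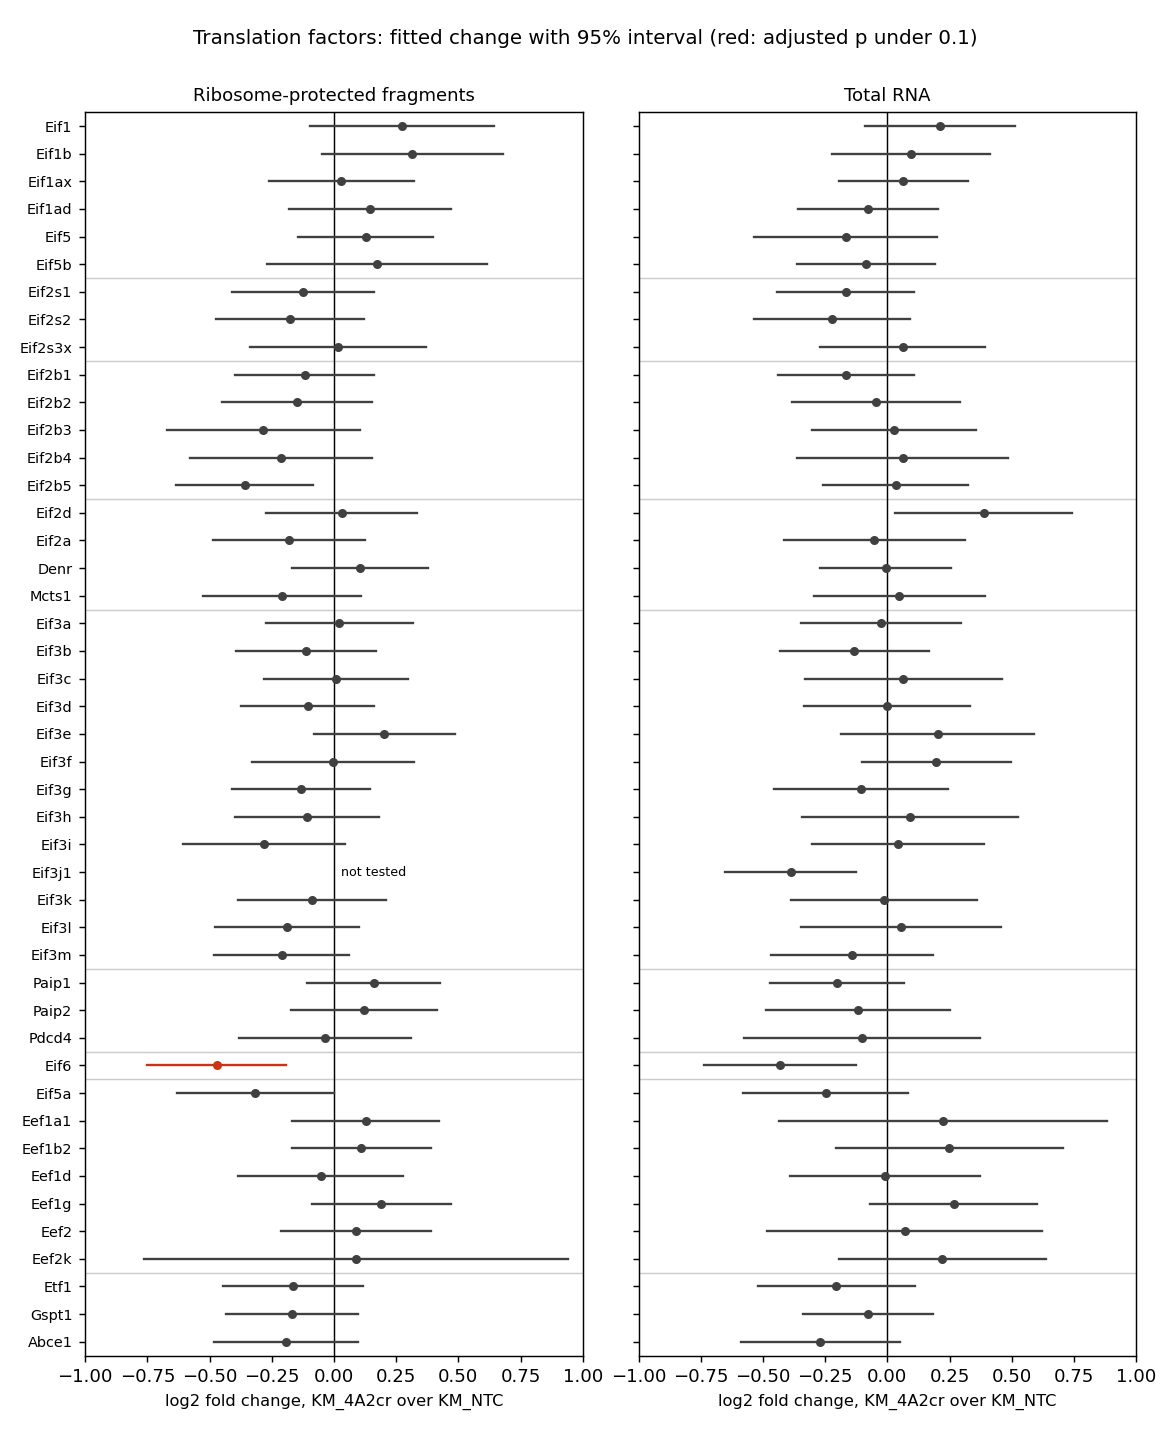
Fitted log2 fold change of KM_4A2cr over KM_NTC for each member in RPFs (left) and total RNA (right), with its 95% interval from 4 pairs, grey lines separating the roles and red marking an adjusted p under 0.1. Eif6 in RPFs, at -0.47, is the only red interval, and Eif3j1 has no RPF value.

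Eif6 encodes the factor that binds the large ribosomal subunit and keeps it from joining the small one too early. Its RPF level in KM_NTC was 123, 102, 105 and 49.7 CPM in replicates 1 to 4, and in KM_4A2cr 83.3, 78.6, 68.2 and 40.4. It was lower in KM_4A2cr in every pair, and replicate 4 was the lowest library of each line. The log2 fold change was -0.47 (SE 0.124, adjusted p = 0.0679 by edgeR), a level 0.721 times that of KM_NTC with a 95% interval of 0.594 to 0.876. In total RNA Eif6 was read at 59.3, 60.6, 48.0 and 40.2 CPM in KM_NTC and at 47.7, 41.2, 43.6 and 24.0 in KM_4A2cr. The total RNA was again lower in 4 of 4 pairs, with a log2 fold change of -0.43 (SE 0.137) that missed the threshold (adjusted p = 0.125 by edgeR). The change in TE was -0.07 (95% interval -0.33 to 0.19). In RPFs, lower values in all 4 pairs were found for 16.0% of all genes and for 5 of the 44 members. Without replicate 4 the log2 fold change of Eif6 was -0.52 in RPFs (adjusted p = 0.00291) and -0.35 in total RNA (adjusted p = 0.0259), while leaving out replicate 1, 2 or 3 ended the RPF call, with adjusted p = 0.214, 0.329 and 0.348. Over all its alternatives the adjusted p of Eif6 in RPFs ranged from 0.00291 to 0.998, the last without the block. In bulk libraries such as these, fewer cells that express a gene and less RNA per cell cannot be told apart.

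Eif6 lies on chromosome 2, as do the members Eif2s2, Eif3m and Eif3j1. Each of these had log2 fold changes below 0 in RPFs and in total RNA, Eif3j1 being tested only in total RNA. In RPFs their log2 fold changes were -0.18 for Eif2s2 (adjusted p = 0.463) and -0.21 for Eif3m (adjusted p = 0.327 in the same edgeR test). The 832 chromosome 2 genes tested in RPFs had a median log2 fold change of -0.21, beside -0.01 over all 10058 genes placed on a chromosome. Of the 20 tested genes nearest to Eif6, 10 on each side, 16 were below 0 in RPFs, with a median of -0.23, and none passed the threshold. Around Eif2s2 the corresponding values were 19 of 20 with a median of -0.23, with no call, and around Eif3m 17 of 20 with a median of -0.25, where 1 gene was called higher and 2 lower. The part of the chromosome in the values of these members was not tested.

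eIF2B, the complex that exchanges GDP for GTP on eIF2, was below 0 in RPFs for all 5 subunits, from -0.12 for Eif2b1 to -0.36 for Eif2b5, and none passed the test. In total RNA 3 of the 5 were above 0, between -0.17 and 0.06. Without replicate 4, 0 of 5 were above 0 in RPFs (median -0.21) and 0 of 5 in total RNA (median -0.14). In TE 1 of 5 was then above 0 (median -0.07). Eif2b5 was then called lower in RPFs, where 14.3% of all genes were. Eif2b5, the catalytic epsilon subunit, was read in RPFs at 86.9, 80.3, 73.7 and 37.8 CPM in KM_NTC and at 70.8, 55.1, 60.3 and 30.7 in KM_4A2cr. Each KM_4A2cr value was below its partner, and replicate 4 was again low in both lines. The log2 fold change in RPFs was -0.36 (SE 0.122, adjusted p = 0.124 by edgeR). Its total RNA was 71.9, 81.8, 71.1 and 44.3 CPM in KM_NTC and 66.1, 72.9, 76.5 and 56.2 in KM_4A2cr, higher in pairs 3 and 4 and lower in pairs 1 and 2, with a log2 fold change of 0.03 (95% interval -0.26 to 0.32). The RPF difference minus the total RNA difference was -0.17, -0.38, -0.39 and -0.64 on the log2 scale in pairs 1 to 4. TE fell by 0.37 (SE 0.108, adjusted p = 0.0914 by edgeR), to 0.774 times the KM_NTC value (95% interval 0.664 to 0.903). DESeq2 with the same terms gave an adjusted p of 0.167, the lowest value from the alternatives being 0.0745 and the highest, without the block, 0.957. Without replicate 4 the TE change was -0.30 (adjusted p = 0.0994), and without replicate 1, 2 or 3 it was not called (adjusted p = 0.29, 0.319 and 0.376). Eif2b1, a regulatory subunit and the one with the smallest RPF change, was read in RPFs at 53.1, 33.6, 29.0 and 26.2 CPM in KM_NTC and at 44.6, 33.2, 27.2 and 24.5 in KM_4A2cr, a log2 fold change of -0.12 (SE 0.123, adjusted p = 0.608).

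Paip1, Paip2 and Pdcd4 are regulators of initiation that work through the poly(A)-binding protein or eIF4A. All 3 were below 0 in total RNA, from -0.20 to -0.10, and above 0 in TE, from 0.08 to 0.37. Without replicate 4 these ranges were -0.33 to -0.21 and 0.13 to 0.40. Paip2 was then called lower in total RNA, where 12.0% of all genes were. Paip1 and Paip2 were then called higher in TE, where 4.1% of all genes were. Paip1, which binds the poly(A)-binding protein and eIF4A and stimulates translation, was read in RPFs at 76.9, 63.0, 58.9 and 58.3 CPM in KM_NTC and at 85.6, 68.3, 71.4 and 61.9 in KM_4A2cr. Its total RNA was 138, 144, 141 and 106 CPM in KM_NTC and 103, 131, 135 and 93.1 in KM_4A2cr. RPFs were higher in KM_4A2cr in 4 of 4 pairs while total RNA was lower in 4 of 4 pairs, and neither difference alone passed, at log2 fold changes of 0.16 (adjusted p = 0.457) and -0.20 (adjusted p = 0.429 by edgeR). The RPF difference minus the total RNA difference was 0.57, 0.25, 0.34 and 0.27 in pairs 1 to 4. TE rose by 0.37 on the log2 scale (SE 0.101, adjusted p = 0.0785 by edgeR), to 1.29 times the KM_NTC value (95% interval 1.12 to 1.49). DESeq2 gave an adjusted p of 0.0991. Without replicate 4 the TE change was 0.40 (adjusted p = 0.0199), and without replicate 1, 2 or 3 the adjusted p was 0.474, 0.240 and 0.226. Over all its alternatives the adjusted p ranged from 0.0199 to 0.957. Pdcd4 was read in RPFs at 23.2, 32.96, 13.8 and 36.3 CPM in KM_NTC and at 18.2, 30.5, 12.9 and 48.5 in KM_4A2cr. It was lower in pairs 1 to 3 and higher in pair 4, with a log2 fold change of -0.04 (SE 0.153, adjusted p = 0.912), a sign that turns without the block and without replicates 1 or 3. Paip2, a competitor of Paip1, changed by 0.12 in RPFs, -0.12 in total RNA and 0.24 in TE (adjusted p = 0.299).

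**Figure D3:**
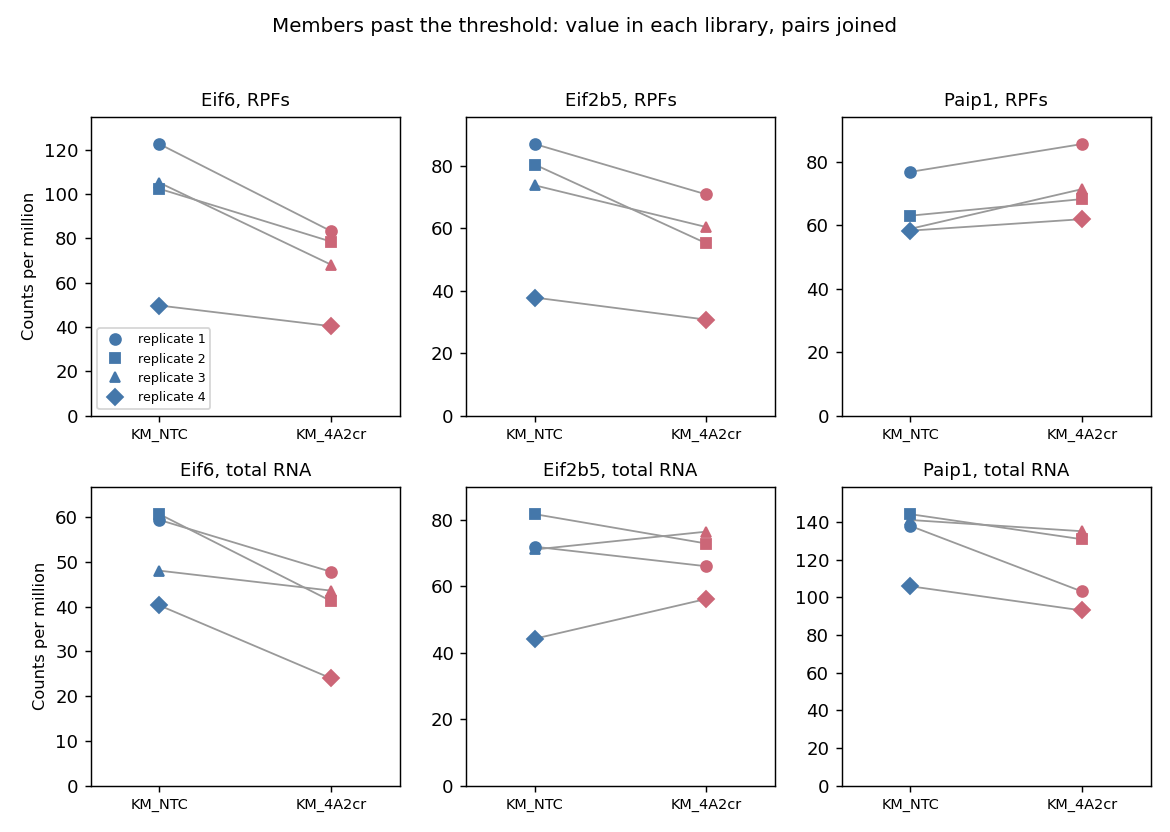
CPM of Eif6, Eif2b5 and Paip1 in each RPF library (top) and total RNA library (bottom), with the libraries of the same replicate number joined by a line and replicates told apart by symbol. Eif6 falls along every line in both rows, Eif2b5 only in RPFs, and Paip1 rises in RPFs (58.3 to 76.9 CPM in KM_NTC, 61.9 to 85.6 in KM_4A2cr) and falls in total RNA.

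The factors that select the start codon were all above 0 in RPFs, 6 of 6, with a median of 0.16, and none passed the test. In total RNA 3 of the 6 were above 0 (median -0.01), and in TE 5 of 6 (median 0.21). Without replicate 4 these counts were the same, with medians of 0.16 in RPFs, -0.003 in total RNA and 0.18 in TE. Eif1b, a close relative of the scanning factor eIF1, had the highest RPF log2 fold change among all members. It was read at 22.8, 20.0, 17.7 and 23.1 CPM in KM_NTC and at 21.3, 22.8, 29.5 and 32.0 in KM_4A2cr, with a log2 fold change of 0.32 (SE 0.162, adjusted p = 0.279). Pair 1 went the other way and pairs 2 to 4 were higher. Eif1 itself changed by 0.27 (SE 0.163) and its pairs ran from -0.28 to 0.65. Eif1ax, whose product works with eIF1 in scanning, had the lowest change of the 6, at 126, 162, 116 and 120.4 CPM in KM_NTC and 119.7, 146, 143 and 125 in KM_4A2cr, a log2 fold change of 0.03 (SE 0.129, adjusted p = 0.913) whose sign turns with upper-quartile scaling, with library size alone and without replicate 3. Eif5, the GTPase activator of eIF2, had an RPF change of 0.13, a total RNA change of -0.17 and a TE change of 0.30 (SE 0.103, adjusted p = 0.144). Its RPF difference lay above its total RNA difference in pairs 1 to 3, and without replicate 4 its TE change was 0.42 (adjusted p = 0.00423) and that in total RNA -0.31 (adjusted p = 0.0191). Eif5b changed by 0.17 in RPFs, with pairs from -0.42 to 0.89.

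Among the subunits of eIF2, the carrier of initiator tRNA, Eif2s2 (beta) was read in RPFs at 379, 642, 495 and 428 CPM in KM_NTC and at 286, 523, 452 and 468 in KM_4A2cr. It was lower in pairs 1 to 3 and higher in pair 4, with a log2 fold change of -0.18 (SE 0.132, adjusted p = 0.463). Without replicate 4 it was -0.28 (adjusted p = 0.0643). Eif2s3x (gamma, the GTP-binding subunit) was read at 163, 188, 166 and 131 CPM in KM_NTC and at 145, 166, 150.3 and 194 in KM_4A2cr, with the same order of pairs, and its log2 fold change of 0.02 (SE 0.156, adjusted p = 0.963) became -0.16 without replicate 4. Eif2s1, the alpha subunit that stress kinases phosphorylate, changed by -0.12 in RPFs and -0.17 in total RNA. The Y-linked copy of the gamma subunit, Eif2s3y, had 0 counts in all 8 total RNA libraries.

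eIF2D, eIF2A, DENR and MCTS1 can bring tRNA to the ribosome or recycle subunits without eIF2. Denr, with the highest RPF change of the 4, was read at 80.2, 78.5, 93.4 and 68.6 CPM in KM_NTC and at 80.3, 85.1, 113 and 69.2 in KM_4A2cr, a log2 fold change of 0.10 (SE 0.121, adjusted p = 0.647) that turns to -0.03 with library size as the only scaling. Mcts1, whose product forms a dimer with DENR, was read at 31.0, 32.9, 22.3 and 18.0 CPM in KM_NTC and at 23.9, 26.9, 24.4 and 14.5 in KM_4A2cr, a log2 fold change of -0.21 (SE 0.140, adjusted p = 0.409). The partners of the dimer thus had estimates of opposite sign, and both intervals cross 0 (-0.17 to 0.38 for Denr and -0.53 to 0.11 for Mcts1). Eif2d had the highest total RNA log2 fold change of all members, 0.39 (SE 0.161, adjusted p = 0.235), with pair differences of 0.24, 0.31, 0.05 and 0.99, and an RPF change of 0.03.

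eIF3 is the scaffold that binds the small subunit and the eIF4F complex. Of its 12 subunits tested in RPFs, 3 were above 0 and the median was -0.11. In total RNA 6 of 13 were above 0 with a median of -0.001, and none passed in RPFs, total RNA or TE. Without replicate 4, 2 of the 12 were above 0 in RPFs (median -0.17) with 3 called lower, 2 of the 13 in total RNA (median -0.19) with 5 called lower, and 9 of 12 in TE (median 0.05) with none called. Of all genes, 14.3% were then called lower in RPFs and 12.0% in total RNA. The highest RPF change was that of Eif3e, read at 334, 400.0, 294 and 492 CPM in KM_NTC and at 331, 437, 358 and 655 in KM_4A2cr, a log2 fold change of 0.20 (SE 0.126, adjusted p = 0.368). The lowest was that of Eif3i, a WD-repeat subunit, read at 198, 210.4, 222 and 191 CPM in KM_NTC and at 148, 169.9, 153 and 213 in KM_4A2cr. Eif3i was lower in pairs 1 to 3 and higher in pair 4, with a log2 fold change of -0.28 (SE 0.145, adjusted p = 0.281), while its total RNA changed by 0.04 and its TE by -0.32 (SE 0.098, adjusted p = 0.108). Without replicate 4 the RPF change of Eif3i was -0.42 (adjusted p = 0.00774). The core subunits Eif3a, Eif3b and Eif3c changed by 0.02, -0.11 and 0.01 in RPFs, and the cap-binding subunit Eif3d by -0.11.

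Eif3j1, the loosely bound subunit, had 0 counts in each of the 8 RPF libraries, where a count of 0 allows up to 3 counts a library, although its mRNA was read in total RNA at 137, 132, 127 and 93.1 CPM in KM_NTC and at 94.4, 107, 104 and 69.1 in KM_4A2cr. The mRNA was lower in 4 of 4 pairs, with a log2 fold change of -0.39 (SE 0.119, adjusted p = 0.113 by edgeR), and without replicate 4 it was -0.38 (adjusted p = 0.0063). Its close paralogue Eif3j2, which is not a member, was read in RPFs at 166 ± 36.8 CPM in KM_NTC and 123 ± 11.3 in KM_4A2cr (log2 fold change -0.42, SE 0.136, adjusted p = 0.112) and in total RNA at 106 ± 25.6 and 81.8 ± 14.7. Footprints and RNA reads from identical stretches of the 2 genes cannot be told apart, so the values of both are uncertain.

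The elongation factors include the most abundant members. In RPFs 5 of 7 were above 0 with a median of 0.09, in total RNA 5 of 7 with a median of 0.22, and in TE 1 of 7 with a median of -0.08, and none passed the test. Without replicate 4 the counts were 5 of 7 in RPFs (median 0.06), 3 of 7 in total RNA (median -0.07) with 3 called lower, and 6 of 7 in TE (median 0.05) with Eef2 called higher. Of all genes, 12.0% were then called lower in total RNA and 4.1% higher in TE. Eef1g, the gamma subunit of the eEF1 exchange complex, had the highest RPF change, read at 648, 714, 636 and 684 CPM in KM_NTC and at 635, 842, 731 and 871 in KM_4A2cr (log2 fold change 0.19, SE 0.124, adjusted p = 0.395). Eef1a1 changed by 0.13 in RPFs and 0.22 in total RNA, where its standard error of 0.297 was the largest of all members. Eef2 had log2 fold changes of 0.09 in RPFs and 0.07 in total RNA. Their total RNA values turned sign without replicate 4, to -0.07 for Eef1a1 (adjusted p = 0.714) and -0.24 for Eef2 (adjusted p = 0.0793), and the TE change of Eef2 was 0.28 (adjusted p = 0.036).

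Eif5a, the hypusine-bearing factor that helps ribosomes through difficult peptide bonds, had the lowest change of the elongation group. It was read in RPFs at 745, 698, 773 and 421 CPM in KM_NTC and at 579, 526, 523 and 444 in KM_4A2cr, with a log2 fold change of -0.32 (SE 0.139, adjusted p = 0.211), and in total RNA it changed by -0.25 (SE 0.150, adjusted p = 0.43). It was lower in pairs 1 to 3 and higher in pair 4 in both. Without replicate 4 it was lower in RPFs by 0.44 (adjusted p = 0.00682) and in total RNA by 0.38 (adjusted p = 0.0034). Eef2k had only 28 to 60 RPF counts in the KM_NTC libraries and 2 in replicate 4 of KM_4A2cr, beside 55 to 70 in replicates 1 to 3 of that line. Its RPF log2 fold change of 0.09 (SE 0.377) moved to 0.44 (adjusted p = 0.0967) without replicate 4.

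The termination and recycling factors were below 0 in all 3 cases in RPFs, from -0.19 to -0.16, and in total RNA, from -0.27 to -0.08, without a call. Abce1, the ATPase that splits the terminated ribosome, was read in RPFs at 235, 238, 179 and 129 CPM in KM_NTC and at 187, 185, 165 and 134 in KM_4A2cr, a log2 fold change of -0.19 (SE 0.128, adjusted p = 0.409). Etf1, which recognises the stop codon, was read at 217, 208, 204 and 139.5 CPM in KM_NTC and at 174, 177, 182 and 146 in KM_4A2cr, a log2 fold change of -0.16 (SE 0.125, adjusted p = 0.47). In RPFs both were lower in pairs 1 to 3 and higher in pair 4, by 0.06 and 0.07. Without replicate 4 they were called in RPFs, at -0.27 (adjusted p = 0.0639) and -0.24 (adjusted p = 0.0878), and in total RNA, at -0.39 (adjusted p = 0.00326) and -0.27 (adjusted p = 0.0468). The shares of all genes then called lower were 14.3% in RPFs and 12.0% in total RNA.

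The order of the pairs recurred across the members. In RPFs 15 of 44 members were lower in KM_4A2cr in pairs 1 to 3 and higher in pair 4 (34.1%), a pattern held by 12.4% of all genes, and in total RNA 20 of 45 (44.4%) beside 12.2%. The opposite pattern was shown by 1 member, Eef2k, in RPFs and in total RNA, beside 13.0% and 13.6% of genes. In RPFs 2 members, Denr and Paip1, were higher in all 4 pairs, beside 14.1% of genes. In total RNA 6 were lower in all 4 pairs and 2 higher, beside 13.0% and 12.4%. Pair 4 taken alone was above 0 for 32 of 44 members in RPFs (48.7% of genes) and 36 of 45 in total RNA (51.1% of genes), and above 0.5 for 2 members in RPFs (15.5% of genes) and 20 in total RNA (15.4% of genes). These differences are of CPM, and in total RNA some turn in TPM. In TPM, replicate 4 of KM_4A2cr was below that of KM_NTC for Eif5 (320 against 364), Eif3m (318 against 353) and Eif5a (286 against 345). It was above for others such as Eef1a1 (17268 against 10972) and Eef2 (2095 against 1416). The members were not counted by sign in TPM. The median difference of the members in pairs 1, 2, 3 and 4 was -0.24, -0.12, -0.07 and 0.09 in RPFs and -0.25, -0.12, -0.11 and 0.38 in total RNA, while the median of all genes stayed between -0.06 and 0.02. With pairs 1 to 3 alone, 11 of 44 members were called in RPFs, 10 of them lower, where 33.4% of all genes were called, 14.3% lower and 19.1% higher. In total RNA 14 of 45 were called, all lower, where 29.8% of genes were called and 12.0% were called lower. These were Eif5, Eif2s2, Eif3b, Eif3g, Eif3j1, Eif3k, Eif3m, Paip2, Eif6, Eif5a, Eef1d, Eef2, Etf1 and Abce1, with log2 fold changes from -0.39 to -0.23. In TE 5 of 44 were called without replicate 4, Eif2b5 lower and Eif5, Eef2, Paip1 and Paip2 higher, where 6.68% of genes were called, 2.58% lower and 4.1% higher.

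**Figure D4:**
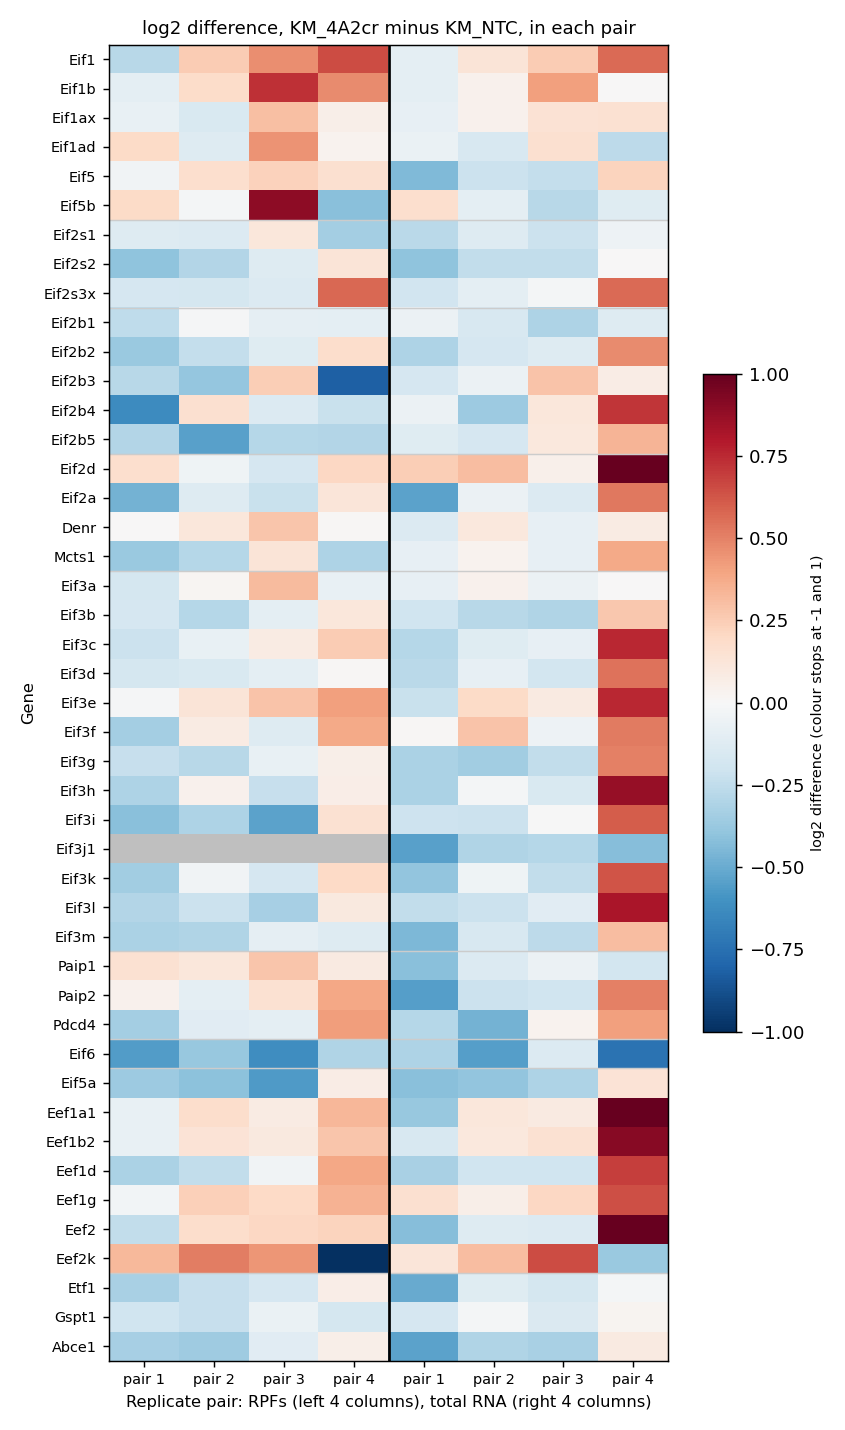
Difference KM_4A2cr minus KM_NTC in log2 CPM for each member (rows, by role) in each of the 4 replicate pairs, for RPFs (left 4 columns) and total RNA (right 4 columns), blue lower and red higher in KM_4A2cr, grey not tested. The total RNA column of pair 4 is mostly red, with 36 of 45 members above 0, while columns 1 to 3 are mostly blue.

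The members with known TOP mRNAs differed more in pair 4 than the other members did. These 8 genes are Eef1a1, Eef1b2, Eef1d, Eef1g, Eef2, Eif3e, Eif3f and Eif3h. In total RNA CPM of pair 4 all 8 were higher in KM_4A2cr, by 0.52 to 1.08 on the log2 scale with a median of 0.81, where the other 37 members had a median of 0.22. In pairs 1, 2 and 3 the medians of the 8 were -0.27, 0.08 and 0.02. Their RPFs in pair 4 differed by less, by 0.07 to 0.41 with a median of 0.34, so that the RPF difference minus the total RNA difference was below 0 for 8 of 8 in pair 4 (median -0.49) and for 2, 3 and 5 of 8 in pairs 1, 2 and 3. The other members were also mostly below 0 in pair 4, with 10 of 36 above 0 and a median of -0.18. The share of all genes below 0 was not counted.

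In CPM, the level of these mRNAs was high in replicate 4 of both lines. Eef1a1 was read in total RNA at 9794, 7984, 7297 and 12376 CPM in KM_NTC and at 7552, 8616, 7763 and 26198 in KM_4A2cr, so that replicate 4 was the highest library of each line. Against the mean of replicates 1 to 3 of the same line, the 8 genes were higher in replicate 4 by a median of 0.61 in KM_NTC total RNA and 1.53 in KM_4A2cr total RNA, and by 0.50 and 0.76 in the RPFs of the lines, with 8 of 8 above 0 each time. The other members had medians of -0.38 and -0.04 in total RNA and -0.26 and -0.28 in RPFs, and the medians of all genes lay between -0.05 and 0.02. Among those others Eif3k, Pdcd4 and Eif3g were higher in replicate 4 of KM_4A2cr total RNA, by 1.35, 0.97 and 0.92, and Eif6, Eif2b1 and Eif2b5 differed by -0.87, -0.78 and -0.35. In TPM, replicate 4 was the highest library of KM_4A2cr for each of the 8 genes with TOP mRNAs. In KM_NTC this held for all but Eef1d (281, 231, 185 and 201 TPM in replicates 1 to 4) and Eef2 (1347, 1436, 931 and 1416). Eef1a1 was at 10667, 10272, 7833 and 10972 TPM in KM_NTC, so the size of the shift depends on the scaling. These are descriptions of 1 harvest of each line, which has no repeat.

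**Figure D5:**
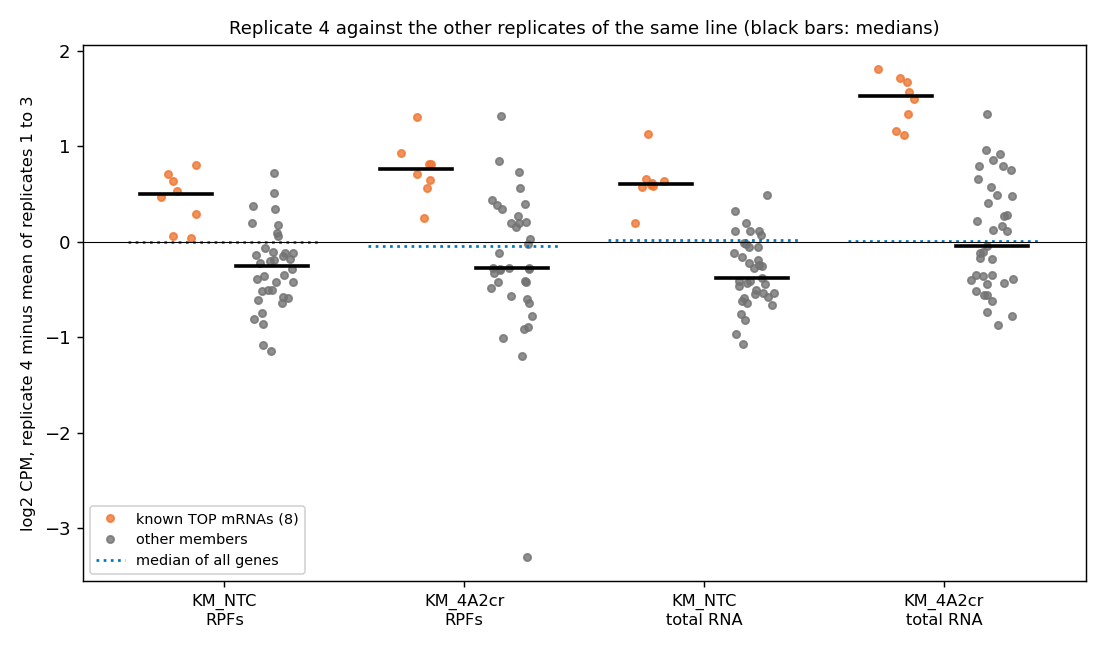
Log2 CPM of replicate 4 minus the mean of replicates 1 to 3 of the same line, for RPFs and total RNA of each line, with 1 point per member, orange for the 8 known TOP mRNAs and grey for the others, black bars at medians and a dotted line at the median of all genes. All orange points lie above 0, with medians from 0.50 to 1.53, and the lowest grey point is Eef2k in KM_4A2cr RPFs, which had 2 counts.

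Genes that modify or regulate these factors were examined from lists of 55 genes, of which 50 were tested in RPFs. None was higher in KM_4A2cr and 4 were lower, where 10.3% of all genes were called and 3.72% were called lower, and none passed in total RNA or TE. Dph2 and Dph7 act in the synthesis of diphthamide, the modified histidine of eEF2, and were read in RPFs at 10.0 ± 4.48 and 5.53 ± 2.38 CPM in KM_NTC and at 5.56 ± 3.48 and 2.86 ± 1.48 in KM_4A2cr (SD, n = 4). Their log2 fold changes were -0.87 (SE 0.187, adjusted p = 0.0366) and -0.88 (SE 0.242, adjusted p = 0.0759 by edgeR). Eef1akmt1 and Eef1akmt4 methylate lysines of eEF1A and fell by 0.63 (SE 0.148, adjusted p = 0.0505) and by 0.83 (SE 0.179, adjusted p = 0.0357 by edgeR). All 4 were called lower without replicate 4 as well, with log2 fold changes from -0.92 to -0.62. Of the 50 genes, 8 were then called lower in RPFs and 4 higher, where 14.3% and 19.1% of all genes were. In total RNA 7 of 51 were then called lower and 2 higher, where 12.0% of all genes were called lower and 29.8% in either direction. In TE 1 of 50 was then called, where 6.68% of all genes were. All 4 were lower in 4 of 4 pairs and were read at low levels, of at most 17.6 CPM on average in KM_NTC. Of the other lists, the 6 eIF2 kinases and phosphatase subunits ran from -0.33 to 0.39, the 4 eIF5 mimics and eIF6 release factors from -0.29 to -0.10, the 7 other elongation and rescue factors from -0.33 to 0.20, the 3 poly(A)-binding and TOP mRNA proteins from 0.17 to 0.19, the 3 adaptors and kinases of PDCD4 and eEF2K from 0.01 to 0.12 and the 9 mitochondrial translation factors from -0.29 to 0.16 in RPFs, with no call.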

How the data were processed

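RPFs and total cytoplasmic RNA were measured in 4 harvests each of KM_NTC and KM_4A2cr. The authors trimmed reads with Cutadapt 1.18, removed duplicates with UMI-tools 1.0.1, aligned RPFs with BBmap to the most abundant transcript per gene (GENCODE vM27) and deposited counts of 28 to 33 nt reads in coding regions without the first 20 and last 10 codons. They aligned total RNA with Bowtie2 2.3.5.1, and RSEM 1.3.3 gave the deposited expected counts and TPM per isoform. These choices make RPF counts depend on 1 isoform and total RNA counts on all isoforms of a gene.

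Counts were summed per gene, expected counts being rounded (those of member isoforms were already whole), and tested with edgeR 4.0.16 (quasi-likelihood, TMM factors, filterByExpr, cell line plus replicate block) in R 4.3.3. TE was the interaction in all 16 libraries with lysate terms. P-values were adjusted by Benjamini-Hochberg over all genes tested, with a threshold of 0.1. CPM are TMM-scaled, with a prior count of 2 on the log2 scale. The model was tested on simulated data, in which most changes of 0.5 on the log2 scale were missed and some calls fell on unchanged genes. Replicates were harvested on different days per the labels, which do not say that the lines shared a day. Same-numbered libraries were taken as pairs because their deviations from group means correlated at 0.575 to 0.782 in RPFs and 0.611 to 0.756 in total RNA. Depth (4512403 to 9621848 counts) limits precision for low genes, and standard errors cover the spread over harvests of 1 line each. DESeq2 1.42.0, other scalings, filters, the threshold and left-out replicates were tried.

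Values in every sample are given for members that passed in any readout and for the highest and lowest RPF change of each role. Total RNA values in every sample are also given for Eif3j1 and Eef1a1. Other genes named are Eif4a2, Eif2s3y, Eif3j2 and listed genes that passed in RPFs. The members and lists were chosen with earlier results of these data known. Members other than these that are named with values without replicate 4 were chosen after their values were seen. One allele of the donor mouse and 1 sequence are not reported here.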

Additional observations from a re-analysis of the deposited data

Results flagged for a closer look

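A check covered 68 groups of 4 libraries, from members that passed in any readout or had the highest or lowest RPF change of their role. In each group the extreme library was compared with its neighbour, a check that chance meets in about 1 group in 20. Of these groups, 8 were marked. In 7 of them the extreme library was replicate 4. In KM_NTC the lowest library was replicate 4 for Eif1ax total RNA (67.8 CPM), Paip1 total RNA (106 CPM), Eif5a RPFs (421 CPM), Etf1 RPFs (139.5 CPM) and Etf1 total RNA (300.3 CPM). In KM_4A2cr the highest library was replicate 4 for Eif3e total RNA (972 CPM) and Eif3i total RNA (243 CPM). Denr total RNA was highest in replicate 3 of KM_NTC, at 125 CPM.

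The change in RPFs differed from the change in total RNA, by the interaction test, for Eif2b5 (-0.37 on the log2 scale) and Paip1 (0.37).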

How the results depend on the processing

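The counts of called members were low and moved with the settings. The 1 RPF call became 0 without the replicate block and at a threshold of 0.05, and 3 with library size as the only scaling, and it stayed at 1 with DESeq2, RLE or upper-quartile factors, no filter and a filter of 50 counts. The 0 total RNA calls became 1 with upper-quartile factors (Eif3j1) and 2 both with library size only and with no filter (Eif3j1 and Eif6). The 2 TE calls became 0 without the replicate block, with library size only and at 0.05, 1 with DESeq2 and 4 with no filter. Over all genes, library size only called 15.7% in RPFs, 10.4% in total RNA and 1.32% in TE, and no filter 8.72%, 7.18% and 3.45%. Upper-quartile factors called 4.97% of genes in total RNA, and DESeq2 1.36% in TE. The settings that kept 1 RPF call called 8.72% to 11.5% of genes. At 0.05 the shares were 4.26% in RPFs and 0.761% in TE. Leaving out 1 replicate gave 0 to 11 calls in RPFs, 0 to 14 in total RNA and 0 to 5 in TE, the highest each time without replicate 4. Over all genes tested, the calls without replicate 4 were 3469 in RPFs, 3260 in total RNA and 673 in TE, and without another replicate 32 to 232, 63 to 207 and 10 to 41. No gene passed without the block. Library size only moved the median of all genes to -0.14 in RPFs and -0.15 in total RNA. Signs turned for members near 0. Under upper-quartile factors and library size only, the values were -0.011 and -0.10 for Eif1ax RPFs, -0.024 and -0.11 for Eif2s3x RPFs and -0.0063 and -0.12 for Eif2b5 total RNA. Denr RPFs were -0.027 with library size only, and Pdcd4 RPFs 0.043 without the block. With 1 replicate left out, the lowest and highest values were -0.030 and 0.096 for Eif1ax RPFs, -0.16 and 0.099 for Eif2s3x RPFs, -0.19 and 0.070 for Pdcd4 RPFs, -0.072 and 0.10 for Eif2b5 total RNA and -0.16 and 0.11 for Eif6 TE. The cause of these moves was not tested.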
